A study of Mus musculus with 24 samples.

Results

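The effect of the histone deacetylase inhibitor CI-994 on histone H3 lysine 27 acetylation (H3K27ac) was described in mice that had received foot shocks. The comparison was of 3 HDACi-CFC libraries with 3 Veh-CFC libraries, taken by their treatment labels from 12 H3K27ac libraries of the series, and it covered every peak in the deposited count table. Of 144154 peaks, 144014 had enough counts to be tested and 140 did not. All mice were male C57BL/6J mice of 12 weeks, and NeuN-positive (neuronal) nuclei of the dentate gyrus were sorted, about 750000 nuclei being used per sample. The sample titles name the tissue only as hippocampus. HDACi-CFC mice had CI-994 at 30 mg/kg by intraperitoneal injection 1 h before contextual fear conditioning (CFC), and Veh-CFC mice had the same solvent (dimethyl sulfoxide, Kolliphor and saline) without the drug. Conditioning was 3 min in a chamber and then 2 foot shocks of 0.2 mA, and the mice were killed 1 h later. HDACi-Context and Veh-Context mice spent as long in the chamber and were not shocked. Their 6 libraries entered the same fit, where they add to the estimate of the spread between libraries, and served for the question of whether the drug effect differed without shock. A fit of the 6 shocked libraries alone called 667 rises and 480 falls. The drug was assigned to mice at random. The labels do not say whether each library came from 1 mouse or from a pool, so the p-values measure the spread between these libraries, which may be partly technical.

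Histone acetylation is set by acetyltransferases such as p300 and CBP and removed by deacetylases. CI-994 inhibits the class I enzymes (Hdac1, Hdac2, Hdac3 and Hdac8), which act in the Sin3, NuRD, CoREST and NCoR complexes. H3K27ac marks promoters and enhancers in use, whereas a primed enhancer, in the usual scheme, carries H3K4 monomethylation with little H3K27ac. The dentate gyrus is the entry station of the hippocampus, and its granule neurons switch on immediate early genes such as Fos, Arc and Egr1 after learning.

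Total counts in peaks were 7836555, 9666039 and 7222654 in the Veh-CFC libraries and 14132205, 10153795 and 12434400 in the HDACi-CFC libraries, so each drug library was deeper than each vehicle library. Levels are given in CPM, counts scaled to a common library total with TMM, a factor that sets most peaks level between libraries. With no spike-in used here, a rise or fall is a change in a peak's level against the rest of its library. The neuronal gate left promoter peaks at 18 of 18 granule neuron markers, among them Prox1 at a mean of 213 CPM, while Gad2 and Slc32a1 of GABAergic interneurons had no peak. Promoter peaks were also present at 12 of 18 markers of CA pyramidal neurons and 7 of 21 of interneurons. Markers of glia were present, such as Mbp at 124 CPM and P2ry12 at 17.4 CPM.

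H3K27ac differed in both directions between drug and vehicle in shocked mice, at 1322 peaks or 0.918% of those tested. It rose at 696 peaks, which is 0.483% of those tested, and fell at 626 peaks, which is 0.435% (edgeR quasi-likelihood test, Benjamini-Hochberg adjusted p under 0.05). The median width over all tested peaks was 1189 bp, and the rises were broader (median 4874 bp). Of the 696 rises 515 lay in introns, as did 83731 of the 144014 peaks tested. The falls had a median width of 1580 bp. They were frequent at gene starts: 458 of 626 had an edge within 1 kb of a start site, as did 21487 of all peaks tested, and 286 were annotated as promoter-TSS. Changes were modest in size: the log2 fold change had a median of 0.62 among the rises (0.38 to 1.87) and of -0.76 among the falls (-0.40 to -2.32).

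In 695 of the 696 rises all 3 drug libraries lay above all 3 vehicle libraries, against 8.57% of all peaks, and in 616 of the 626 falls all 3 lay below, against 8.52%. These shares were fixed largely by the test itself. Rises were 52.6% of the 1322 calls, against 40.6% when libraries were scaled by their totals, 39.8% with loess offsets and 66.6% with DESeq2. The number of calls depended on single libraries. Without HDACi-CFC replicate 1, 2 or 3 there were 267, 221 or 139 rises and 142, 202 or 86 falls. Without Veh-CFC replicate 1, 2 or 3 there were 1248, 174 or 373 rises and 1362, 115 or 282 falls. With every library thinned to the smallest total, an alternative added after the data were seen, 461 rises and 304 falls were called.

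The chromatin state deposited with each peak separated the directions. Among 15611 strong-promoter peaks, 449 fell (2.88%) and 29 rose (0.186%), with a median log2 fold change of -0.14. Active enhancers went the other way, with 328 rises and 66 falls among 41914 peaks and a median of 0.05. Primed enhancers had 278 rises and 20 falls among 33866 peaks, with a median of 0.04. The peaks named control, the largest class, had 56 rises and 80 falls among 46429 peaks and a median of -0.08, and the 6113 peaks in repressed regions had 5 and 9. At the 81 weak promoters there were 2 falls. Of the strong promoters, 5648 were annotated as promoter-TSS, and of these 270 fell (4.78%) and 1 rose.

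**Figure D1:**
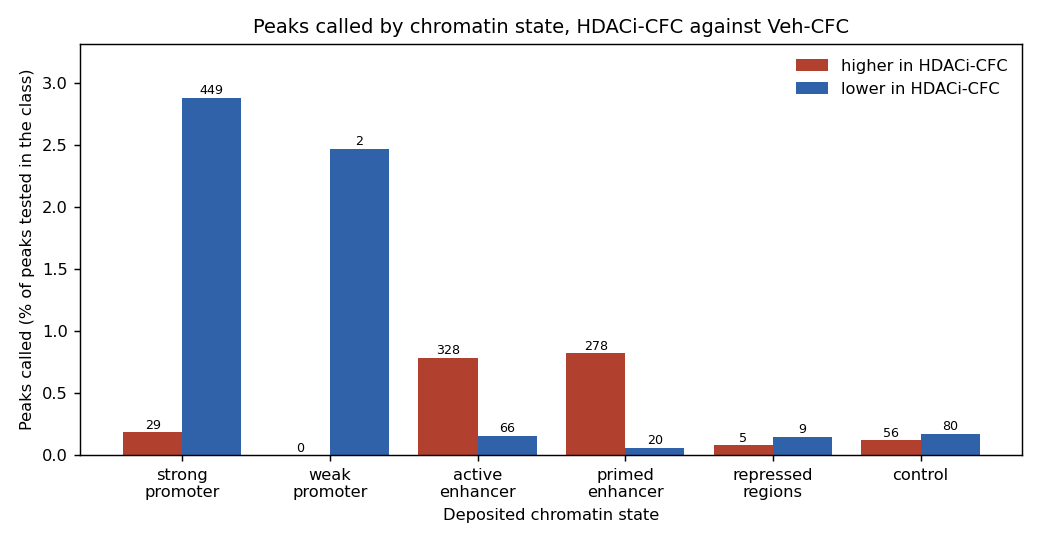
Percent of tested peaks called higher (red) or lower (blue) in HDACi-CFC than in Veh-CFC, for each deposited chromatin state, with the number of peaks above each bar. Lower peaks stand out in strong promoters (449), and higher peaks in active (328) and primed (278) enhancers.

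Both class counts kept their direction and changed in size when a library was left out. Falls at strong promoters numbered 123, 148 and 71 when HDACi-CFC replicate 1, 2 or 3 was dropped, and 619, 88 and 237 when Veh-CFC replicate 1, 2 or 3 was dropped. Rises at active and primed enhancers together, 606 in all, numbered 231, 192 and 126, and then 1039, 154 and 310, in the same order. In thinned libraries there were 230 and 409. Falls at the 2 enhancer classes together depended more on the setting. They numbered 86 with TMM, 165 with library totals, 265 with loess offsets, 266 among peaks with a mean count of at least 50, 388 without Veh-CFC replicate 1 and 39 in thinned libraries. With loess offsets the rises there numbered 577.

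The share of each library's counts in each state was also compared. Strong promoters held 12.8%, 12.3% and 11.8% of the counts in Veh-CFC libraries and 11.2%, 10.8% and 11.03% in HDACi-CFC libraries. All drug libraries lay below all vehicle libraries, a difference of -1.25 points (exact permutation test, two-sided, p = 0.1, the smallest possible with 3 against 3; adjusted p = 0.15). Active enhancers held 50.0% ± 0.293 with the drug and 48.4% ± 0.627 without (SD, n = 3; p = 0.1 by the same exact test, 0.15 when adjusted). Primed enhancers held 18.2% ± 0.219 and 17.4% ± 0.41 (exact permutation p = 0.1, adjusted p = 0.15). The control state held 18.8% ± 0.422 and 19.8% ± 0.841 and its groups overlapped (exact permutation p = 0.3). Weighting each peak equally gave a smaller separation. The mean log2 CPM of strong-promoter peaks minus that of all peaks was 0.45, 0.42 and 0.28 in Veh-CFC and 0.33, 0.25 and 0.29 in HDACi-CFC, and the groups overlapped (exact permutation p = 0.3). By the same measure the exact permutation p was 0.2 for active and 0.1 for primed enhancers.

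Promoters of the falling class are shown here because strong promoters held most of the losses, beside 1 that rose for contrast. They were picked, after the values were seen, to show the motifs: Rps6, Cdk10 and Sft2d1 from the falls with an ETS motif in the printed bases (36 of 206 falls with a strong-promoter window), Coq7 with CCAAT boxes and Jakmip3 with GC boxes. Rpl10 among the falls and 1810010H24Rik among the rises had the smallest p-values and none of these motifs in those bases. Each is the 120 bases before the transcription start site, 5′ to 3′ on the gene's strand, from RefSeq on the build GRCm38.p6. Capitals mark 3 motifs, which were searched on both strands. The ETS motif was CCGGAAG, read on the reverse strand as CTTCCGG. The CCAAT box has the letters of its name, read on the reverse strand as ATTGG. The GC box was GGGCGG, read on the reverse strand as CCGCCC. Rps6 (chr4:86857368-86857487, minus strand), Cdk10 (chr8:123224721-123224840, plus), Sft2d1 (chr17:8310983-8311102, plus) and Coq7 (chr7:118533357-118533476, minus) fell, and Jakmip3 (chr7:138940610-138940729, plus) rose.
Rps6: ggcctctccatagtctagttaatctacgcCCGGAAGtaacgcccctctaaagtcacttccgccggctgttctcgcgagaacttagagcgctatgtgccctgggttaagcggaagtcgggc
Cdk10: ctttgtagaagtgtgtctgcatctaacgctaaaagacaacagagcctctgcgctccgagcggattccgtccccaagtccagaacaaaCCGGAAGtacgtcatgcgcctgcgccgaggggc
Sft2d1: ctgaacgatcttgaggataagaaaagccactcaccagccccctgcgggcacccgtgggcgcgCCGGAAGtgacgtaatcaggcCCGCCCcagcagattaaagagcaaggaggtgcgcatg
Coq7: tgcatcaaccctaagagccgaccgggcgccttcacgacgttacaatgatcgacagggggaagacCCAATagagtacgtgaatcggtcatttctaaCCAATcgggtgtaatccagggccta
Jakmip3: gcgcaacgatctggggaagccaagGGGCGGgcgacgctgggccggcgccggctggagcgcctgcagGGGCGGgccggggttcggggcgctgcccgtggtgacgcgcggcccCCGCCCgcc

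In the 300 bases around the start site (250 before and 50 after), counting both strands, the ETS motif was present at 68 of 222 promoter peaks that fell (30.6%). It was present in 19.3% of 3309 strong-promoter peaks with such a window, in 14.6% of all 5387 promoter peaks with one, at 1 of 24 that rose, and in 8.86% of the 32851 promoters in the table. The CCAAT box was in 45.0% of the falls and 37.3% of strong promoters, and the cAMP response element TGACGTCA in 5.41% and 3.63%. The GC box was in 44.6% and 49.9%. The median GC content of falling promoters was 55.3%, against 56.0% in strong promoters and 55.0% in all promoter peaks with a window. The median number of CpG dinucleotides per window was 17, 15 and 13 in the same order. These differences in base composition were not tested. A match describes letters and is not evidence of binding.

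Falls at strong promoters were then counted by the side of the start site. Of strong-promoter peaks that spanned the start site, 6.5% fell (219 of 3369). Upstream of it 3.3% fell (132 of 4003), and downstream 1.35% (70 of 5203). In the same order the median log2 fold changes were -0.22, -0.21 and -0.12, and the median mean counts 82.4, 36.6 and 45.5. Peaks with more counts can pass the test more often, so the shares do not rank the sizes of the falls. At 2136 genes a strong-promoter peak lay on each side, so the gene was its own reference. There, 86 upstream and 22 downstream peaks fell, 2 genes being in both counts, and the medians were -0.26 and -0.14. The upstream peaks held fewer counts (median mean count 35.9 against 48.0); the part of depth in this was not tested.

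Coq7, an enzyme of ubiquinone synthesis, had a peak on each side. Its upstream peak (chr7:118533396-118534167, build mm10) measured 6.42, 11.2 and 8.21 CPM in Veh-CFC and 3.40, 3.02 and 2.77 CPM in HDACi-CFC. It fell by 1.50 ± 0.21 on the log2 scale (SE; edgeR adjusted p = 0.000202). The Coq7 peak just downstream of the start had a log2 fold change of -0.26 ± 0.23 (adjusted p = 0.714). Other pairs were chosen after their values were seen. At Fdxr, which encodes the reductase that feeds electrons to mitochondrial P450 enzymes, the upstream log2 fold change was -1.12 ± 0.20 and the downstream one 0.02 ± 0.21. At Ranbp2, a nuclear pore protein, they were -1.01 ± 0.15 and -0.23 ± 0.21, and at Cyp51, an enzyme of cholesterol synthesis, -1.28 ± 0.22 and -0.51 ± 0.20.

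**Figure D2:**
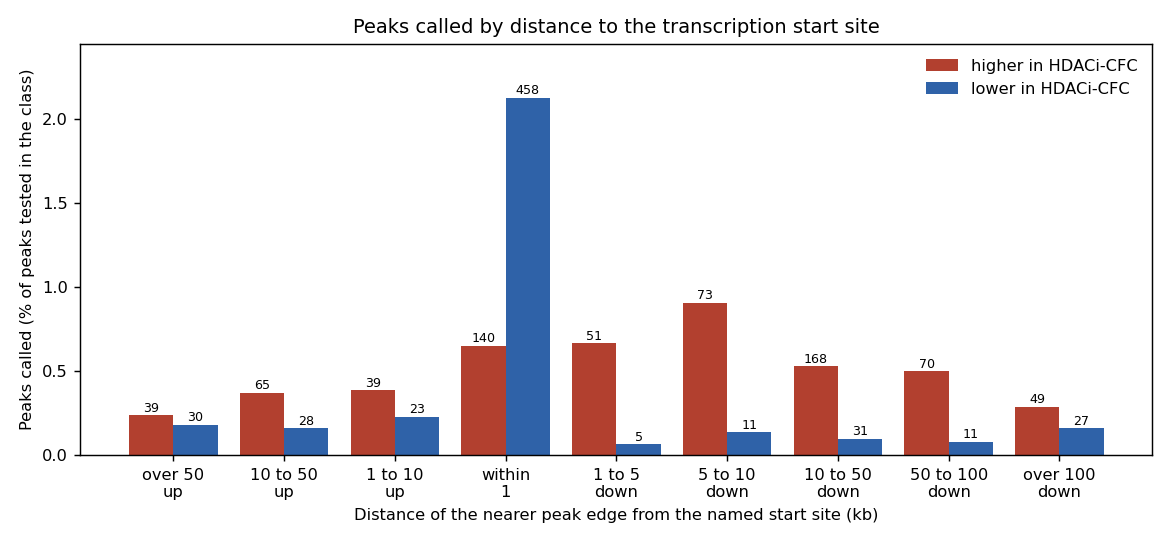
Percent of tested peaks called higher (red) or lower (blue) by the distance in kb from the nearer peak edge to the start site of the gene named beside the peak, with counts above the bars. Falls gather within 1 kb (458 peaks), and rises are most frequent 5 to 10 kb downstream (73 peaks, 0.909%).

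Calls were also counted by distance from the start site, upstream and downstream. Within 1 kb of a start site 458 peaks fell and 140 rose. From 1 to 10 kb downstream 124 rose and 16 fell among 15691 peaks (0.79% and 0.102%), whereas 1 to 10 kb upstream 39 rose and 23 fell among 10093 (0.386% and 0.228%). Beyond 100 kb downstream 49 rose and 27 fell. Intron 1 held 243 of the 515 intronic rises (47.2%), and 106 of the 176 intronic falls (60.2%), against 35.1% of all intronic peaks tested.

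Wide primed enhancers rose more often than narrow ones. Among primed enhancers over 10 kb wide, 53 of 286 rose (18.5%), none fell, and 93.4% had a log2 fold change above 0, with a median of 0.27. Primed enhancers of 5 to 10 kb had 81 rises and no fall among 1106 peaks, and those up to 1 kb had 2 rises and 7 falls among 13853, with a median of -0.02. Active enhancers over 10 kb had 74 rises and 8 falls among 1730, with a median of 0.13. Wide peaks also hold more counts, from a median mean count of 19.4 in peaks up to 1 kb to 755 in those over 10 kb, so more of them can pass a test. With loess offsets, which remove a trend of the change with abundance, the median of primed enhancers still went from 0.04 in the narrowest class to 0.19 in the widest, and the counts in the widest were 44 rises and no fall. Active enhancers showed no such trend with loess offsets: the median was 0.06 in the narrowest class and 0.04 in the widest, where 56 rose and 49 fell.

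**Figure D3:**
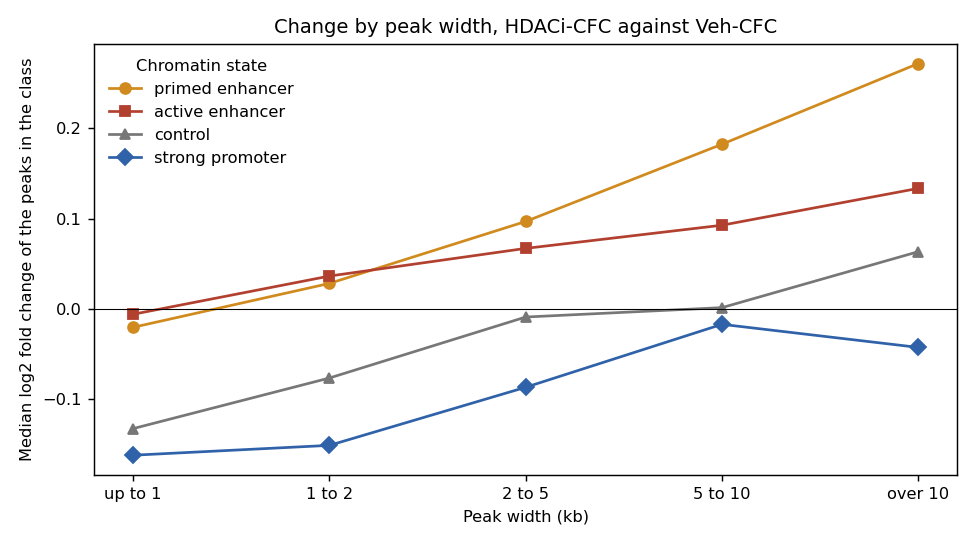
Median log2 fold change (HDACi-CFC against Veh-CFC) by peak width in kb, for 4 chromatin states. Primed enhancers reach 0.27 in peaks over 10 kb, while strong promoters stay below 0 in every width class.

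By adjusted p, Lncpint, Gria2, 9130019P16Rik, Calm2, Slc7a14 and Tcp10a led the named peaks that rose, each in an intron. At Lncpint, the gene of a long noncoding RNA, a primed enhancer domain of 37166 bp in intron 1 (chr6:31179137-31216302) measured 133, 157 and 164 CPM in Veh-CFC and 248, 246 and 262 CPM in HDACi-CFC. The peak rose by 0.74 ± 0.10 (log2, SE; edgeR adjusted p = 0.000143).

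Gria2 encodes the AMPA receptor subunit that sets calcium permeability. Its primed enhancer in intron 2 (chr3:80772135-80778160) measured 13.6, 15.4 and 16.7 CPM with vehicle and 30.4, 28.7 and 29.4 CPM with the drug. It rose by 0.96 ± 0.13 (adjusted p = 0.000143). Slc7a14, a member of the cationic amino acid transporter family, had a primed enhancer in intron 1 that rose by 0.96 ± 0.15, from 11.4, 14.1 and 17.0 to 23.3, 30.5 and 29.2 CPM.

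At Map1b, a microtubule-associated protein of axons and dendrites, an active enhancer domain of 56971 bp rose by 0.58 ± 0.09, from 242, 257 and 267 to 365, 397 and 380 CPM. At Cttnbp2, a cortactin-binding protein of dendritic spines, an active enhancer in intron 1 rose by 0.70 ± 0.11, from 28.4, 31.4 and 29.6 to 48.3, 46.6 and 50.2 CPM. Peaks named for their small p were also required to have groups without overlap, so the separation at these peaks was set by the choice. Dlgap1, a scaffold of the postsynaptic density, had the most rises of any gene, 8 of its 122 peaks over 633 kb, and 1 fall. Ppp3ca, the catalytic subunit of calcineurin, had 5 of 32, Foxo6, a forkhead factor of the hippocampus, 5 of 15, Prickle1, a planar polarity protein, 5 of 41, and Galnt17, a glycosyltransferase, 5 of 84, with 1 fall. Neighbouring peaks of 1 gene share their locus and are not independent.

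**Figure D4:**
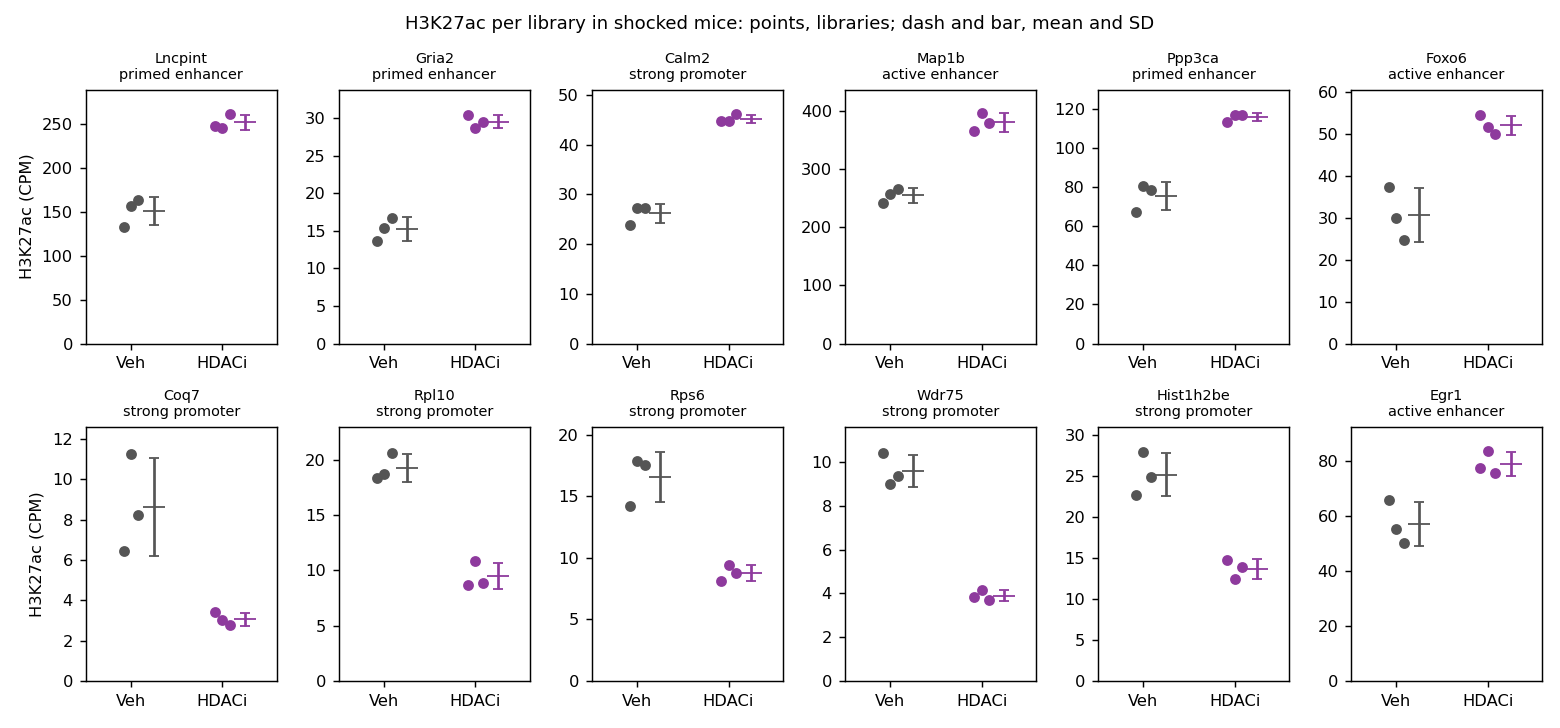
H3K27ac in CPM in each Veh-CFC and HDACi-CFC library for 12 named peaks (points), with the mean and SD beside them. The peaks were chosen from those called, some of them also for groups without overlap, so the plot shows sizes: 133 to 164 against 246 to 262 CPM at Lncpint and 18.4 to 20.7 against 8.69 to 10.8 CPM at Rpl10.

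Calcium signalling genes held rises at and away from their promoters. For each gene list, 1 promoter peak per gene (edge within 1 kb of the start site, highest mean count) was set beside all 14154 such peaks, of which 0.742% rose and 2.7% fell, with a median of -0.08. Peaks further away rose in 0.454% and fell in 0.135% of 122118. In the list of cAMP, calcium and MAP kinase signalling, 4 of 61 promoter peaks rose and none fell, with a median of 0.11, and 14 of 985 other peaks rose (1.42%) and none fell. Calm2, which encodes calmodulin, had a strong-promoter peak in intron 1 that rose by 0.79 ± 0.12, from 23.9, 27.4 and 27.3 to 44.8, 44.7 and 46.2 CPM, while the Calm2 peak over the start site had a log2 fold change of -0.19 ± 0.15. Camk2b, the beta subunit of calcium/calmodulin kinase II, rose by 0.60 ± 0.12 (edgeR adjusted p = 0.00724), a call lost without HDACi-CFC replicate 2 or 3 or Veh-CFC replicate 3. Among distal rises of this list were peaks of Ppp3ca, its regulatory partner Ppp3r1 (0.80 ± 0.16), Camk2a (0.77 ± 0.16) and Adcy1 (0.61 ± 0.13).

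Glutamate receptor and postsynaptic density genes had rises away from their promoters. Of 1592 such peaks 20 rose (1.26%) and 2 fell, whereas of 45 promoter peaks none rose in edgeR and 2 fell, with a median of 0.00. An unadjusted p under 0.05 was found at 3 on the higher side and 13 on the lower, and DESeq2 called 1 higher and 2 lower. As 1 promoter peak per gene was counted, this leaves out 2 further Dlgap1 rises within 1 kb of a start site. The promoter median depended on the choice of peak: with promoter-TSS peaks it was 0.24 over 17 genes. The distal rises belonged to 8 genes: Dlgap1 with 6, Dlgap2 with 4, Gria2 with 3, Dlgap4 and Gria1 with 2 each, and Grin2a, Grm5 and Shank1 with 1 each. The strongest at Gria1, another AMPA receptor subunit, rose by 0.79 ± 0.13, and that at Dlgap2 by 0.76 ± 0.13. The promoter falls were at Dlg1, a PDZ scaffold (-0.50 ± 0.13), and Lrrtm2, a synaptic adhesion protein (-0.46 ± 0.11); 7 and 5 of 14 alternative settings lost them.

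Other lists of neuronal function were read beside the same shares: 0.742% higher and 2.7% lower over all promoter peaks, 0.454% and 0.135% over distal peaks. At those shares, no promoter call in a list of this size does not show a lack of change. Ion channels had 2 rises, Scn8a (0.47 ± 0.11) and Cacna1g (0.48 ± 0.13), and 1 fall, Cacnb4 (-0.58 ± 0.12), among 46, with 8 rises and 2 falls among 1074 distal peaks, 2 of the rises at the sodium channel gene Scn2a. The calls at Scn8a, Cacna1g and Cacnb4 were lost in 5, 9 and 3 of 14 alternative settings. Adhesion and axon guidance genes had no promoter call in edgeR among 54 (5 higher and 4 lower unadjusted, and 1 lower in DESeq2), with 10 rises and 2 falls among 1783 distal peaks. Presynaptic release genes had none among 40 (6 higher and 4 lower unadjusted, none in DESeq2), and 3 rises among 762 distal peaks. Extracellular matrix genes had none among 35 (6 higher and 2 lower unadjusted, none in DESeq2), with a median of 0.14, and 5 rises and 1 fall among 602 distal peaks, 3 of the rises at Col4a2. Neuropeptides, growth factors and their receptors had 1 fall among 33, Fgf14 (-0.49 ± 0.12), lost in 6 settings. Distal genes named in this paragraph and in the lists above were chosen after their values were seen.

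Immediate early genes had the highest list median, 0.27. With promoter-TSS peaks in place of peaks within 1 kb it was 0.12 over 21 genes, below ion channels (0.29 over 25) and some other lists. By the edge within 1 kb, 1 of 36 promoter peaks passed the test, against 0.742% higher and 2.7% lower over all promoter peaks. The peak that passed was that of Egr1, a zinc finger factor. An active enhancer of 13713 bp, upstream of its start site with an edge within 1 kb, measured 65.9, 55.2 and 50.0 CPM with vehicle and 77.4, 83.7 and 75.5 CPM with the drug. It rose by 0.47 ± 0.12 (adjusted p = 0.0352), and 6 of 14 alternative settings lost the call. The Egr1 strong-promoter peak just downstream of the start site had 0.65 ± 0.20 and was not called (edgeR adjusted p = 0.13). Fos had a log2 fold change of 0.66 ± 0.18 (adjusted p = 0.0623), Npas4 of 0.32 ± 0.12, Nr4a1 of 0.35 ± 0.19, Arc of 0.31 ± 0.25, Junb of -0.28 ± 0.15 and Fosb of -0.35 ± 0.22, none past the threshold. This Arc peak, downstream of the start site, ranged from 24.6 to 51.5 CPM among the vehicle libraries alone. Another Arc peak, upstream of the start site, had 0.77 ± 0.19, from a mean of 24.3 CPM with vehicle to 41.5 CPM with the drug. It was not called (edgeR adjusted p = 0.0628). Bdnf, a neurotrophin induced by activity, had 0.10 ± 0.12. Away from promoters 3 of 382 peaks of the list rose (0.785%), against 0.454% of all distal peaks. They lay 1 each at Egr3 (0.48 ± 0.11), Fos (0.61 ± 0.15) and Gadd45g (0.98 ± 0.24), and DESeq2 also called 3. The late response genes had no promoter call in edgeR or DESeq2 among 25 (3 higher and 1 lower unadjusted). Of their 331 distal peaks 3 rose (0.906%), all at Brinp1.

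Promoter peaks at the genes of the drug's targets and their partners were read beside the shares over all promoter peaks, 0.742% higher and 2.7% lower. Hdac1 had a log2 fold change of -0.02 ± 0.14, Hdac2 of 0.36 ± 0.21 and Hdac3 of -0.31 ± 0.15, and none was called in edgeR among 4 class I and 12 other deacetylase genes. At an unadjusted p under 0.05 there were 2 lower among the first and 3 higher and 2 lower among the others, and DESeq2 called 1 of the others higher. Of 23 deacetylase complex genes Tbl1x, an NCoR subunit, rose (0.72 ± 0.18), a call lost in 6 of 14 settings. Genes of acetyltransferases and acetyl readers had no call at 24 promoters in edgeR or DESeq2 (3 higher and 1 lower unadjusted). Of their 200 distal peaks 5 rose (2.5%), against 0.454% of all distal peaks. Among these rises were 2 at Kat6b and 1 each at Crebbp (0.80 ± 0.17) and Kat2b (0.69 ± 0.18).

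Glucocorticoid response genes had rises at Nfkbia, an inhibitor of NF-κB (0.80 ± 0.19), and Nr3c2, the mineralocorticoid receptor (0.51 ± 0.13), and a fall at Cebpd (-0.48 ± 0.11), among 24. These calls were lost in 5, 9 and 6 of 14 alternative settings. Of 20 clock genes Npas2 rose (0.71 ± 0.18), a call lost in 6. Both lists stand beside 0.742% higher and 2.7% lower over all promoter peaks. Nfil3, a transcription factor controlled by the clock, was named for its small p among strong promoters: 3.08, 2.54 and 3.54 CPM became 7.24, 6.14 and 5.46 CPM, or 1.06 ± 0.22, a call lost in 3 settings.

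Promoter falls were called at several groups of genes that every cell uses. Over all promoter peaks 2.7% fell, with a median of -0.08. Of strong-promoter peaks annotated as promoter-TSS 4.78% fell, with a median of -0.26, near the medians of several lists below. The part of chromatin state in the list values was not tested. Of 51 histone gene promoters 11 fell (21.6%) and none rose, with a median of -0.43. Hist1h2be measured 22.6, 27.9 and 24.9 CPM with vehicle and 14.7, 12.4 and 13.9 CPM with the drug, and fell by 0.88 ± 0.14 (adjusted p = 0.000735). Hist1h2bb fell by 1.22 ± 0.21 and Hist2h2ab by 0.83 ± 0.14. Histone genes share near-identical copies, so reads may have been split between them and single values are uncertain.

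Falls were also called at genes of protein synthesis. Of 71 cytosolic ribosomal protein genes 7 fell and 1 rose, with a median of -0.24. Rpl10 measured 18.4, 18.8 and 20.7 CPM with vehicle and 8.69, 10.8 and 8.91 CPM with the drug, and fell by 1.03 ± 0.14 (adjusted p = 0.000164). Rps6, whose promoter is printed above, fell by 0.93 ± 0.16, from 14.3, 17.9 and 17.6 to 8.11, 9.46 and 8.74 CPM. Ribosomal protein genes have many processed copies, so reads at these peaks may be shared with them. The rise was at an upstream active enhancer of Rps10 (0.63 ± 0.14), a call that 6 of 14 settings lost.

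Ribosome assembly and RNA polymerase I and III genes had a median of -0.42, with 4 falls among 64, and 29 were lower at an unadjusted p under 0.05. Wdr75, which acts in rRNA transcription and processing, went from 10.4, 9.01 and 9.34 CPM to 3.84, 4.16 and 3.70 CPM. It fell by 1.30 ± 0.22 (log2). Fbl, the rRNA methyltransferase fibrillarin, fell by 0.69 ± 0.17 and Polr1a, the largest subunit of RNA polymerase I, by 0.60 ± 0.15. Translation factors and tRNA synthetases had 6 falls among 55 and a median of -0.31, with Eif1a falling by 0.83 ± 0.16. Splicing and mRNA processing genes had 5 falls among 56, such as Snrpd3 (-0.75 ± 0.17), and a median of -0.23. Of 14 alternative settings 5 lost Fbl, 5 lost Polr1a, 2 lost Eif1a and 4 lost Snrpd3.

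Mitochondrial genes held further falls. Respiratory chain and ATP synthase genes had 6 falls and no rise among 54, with a median of -0.27, Ndufb3 of complex I falling by 0.65 ± 0.15 and Cox7a2 of complex IV by 0.71 ± 0.15. Mitochondrial ribosome and import genes had 4 falls among 63, with the same median of -0.27, and Mrps18a fell by 0.99 ± 0.22. Ubiquinone synthesis genes had 2 falls among 12, Coq7 and Coq10b (-0.74 ± 0.18). mTOR and autophagy genes had 4 among 41, such as Atg12 (-0.79 ± 0.18). Proteasome and ubiquitin ligase genes had 2 among 58 (3.45%), near the 2.7% of all promoter peaks. The calls at Ndufb3, Cox7a2, Mrps18a, Coq10b and Atg12 were lost in 6, 3, 4, 4 and 3 of 14 alternative settings. Among 24 cholesterol synthesis genes no promoter peak passed in edgeR or DESeq2 (7 lower unadjusted), with a median of -0.19; the Cyp51 peak given above was not the one with its highest count. The alternative settings left the medians of these housekeeping lists negative. Among distal peaks none of 161 was called for the respiratory chain and none of 189 for ribosome assembly, in edgeR or DESeq2. An unadjusted p under 0.05 was found for 8 higher and 4 lower peaks in the one and 5 higher and 18 lower in the other. Over all distal peaks 0.454% rose and 0.135% fell, shares too low for lists of this size to show a lack of calls. Mitochondrial ribosome and import genes had none among 216, and cytosolic ribosomal proteins 1 rise among 224. Translation factors and tRNA synthetases had 1 rise and 2 falls among 197, splicing genes 1 and 1 among 143, and histone genes 1 rise among 55.

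**Figure D5:**
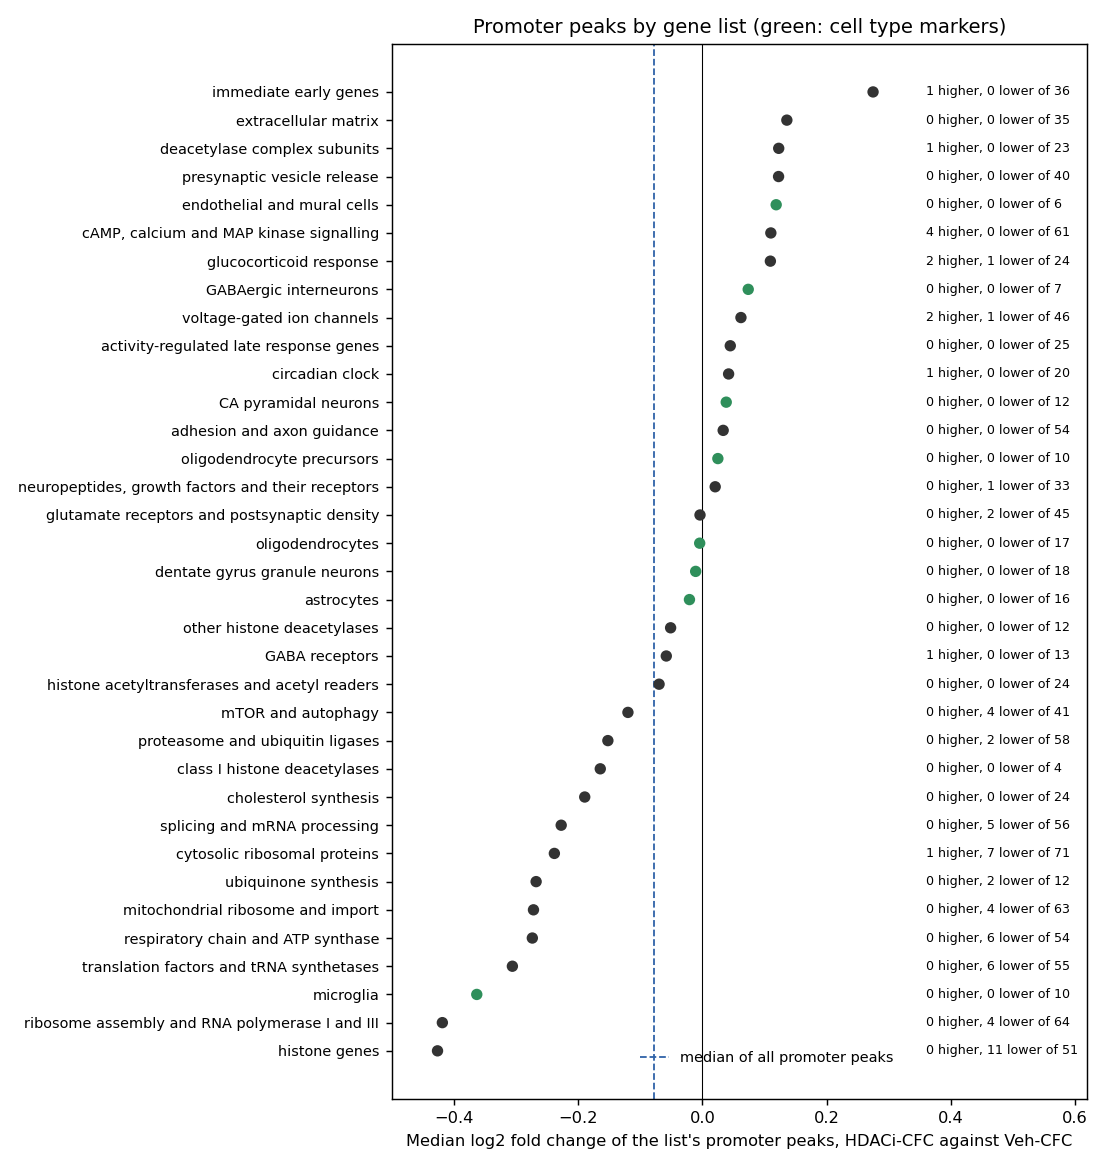
Median log2 fold change of promoter peaks in gene lists (points; green for cell type markers), with the number called and measured at the right and the median of all promoter peaks (-0.08) as a dashed line. Histone genes (-0.43) and ribosome assembly genes (-0.42) lie lowest and immediate early genes (0.27) highest.

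Promoter peaks and distal peaks were then compared within genes. A rise away from promoters was named for 441 genes, of which 381 had a promoter peak. Of these promoter peaks 20 rose (5.25%) and 4 fell (1.05%), with a median of 0.15, against 97 and 268 (2.31%) of 11624 genes with a distal peak and a median of -0.05. The 382 genes whose promoter fell had 1361 distal peaks, of which 4 rose and 3 fell. Gpm6a, Nup214, Prdm8 and Smug1 held both a fall at the promoter and a rise away from it, and were named after their values were seen. Promoters of the genes with a distal rise held more counts (median mean count 198 against 77.4).

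No promoter peak of a cell type marker was called in edgeR or DESeq2 among 96 in the 8 lists of cell types, some genes being in more than 1 list; an unadjusted p under 0.05 was found for 3 on the higher side and 16 on the lower. Granule neuron markers had a median of -0.01, CA pyramidal neurons 0.04, interneurons 0.07, astrocytes -0.02, oligodendrocytes -0.00, their precursors 0.03, and endothelial and mural cells 0.12. Microglia had -0.36, with 2 of 10 measured markers above 0 and none called, and their summed level ranged from 42.3 to 43.4 CPM with the drug and from 48.1 to 65.0 CPM with vehicle. Whether fewer microglial nuclei passed the gate or each carried less of the mark cannot be told apart, and the part of this in other results was not tested. With promoter-TSS peaks in place of peaks within 1 kb, the microglial median was 0.24 over 3 genes.

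The drug was also given to mice that were not shocked, in libraries separate from those above. There, 2.73% of peaks rose and 5.85% fell. Of the 449 strong-promoter falls, 394 (87.8%) also fell without shock, with medians of -0.76 and -0.83. Of 278 primed enhancer rises 185 (66.5%) also rose without shock, and of 328 active enhancer rises 86 (26.2%), where the median change was 0.60 with shock and 0.24 without. All these peaks were chosen by their calls with shock. The choice enlarges the medians with shock and not those without, so medians and shares do not measure a difference. A call in 1 setting only does not show a difference, so the drug by conditioning interaction was tested at every peak. It passed at 50 peaks (0.0347%), of which 49 had the more positive drug effect in shocked mice, and 7 of those 50 were among the 1322 calls. At Gria2 the drug effect was 0.96 ± 0.13 with shock and 0.87 ± 0.12 without, and at Dlgap1 0.71 ± 0.12 and 0.86 ± 0.12. At Camk2b it was 0.60 ± 0.12 and 0.03 ± 0.12, and at Foxo6 0.76 ± 0.13 and 0.04 ± 0.14, with interaction adjusted p of 0.16 and 0.11 in edgeR.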

How the data were processed

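The authors deposited whole-number read counts for each peak in 12 columns, which were taken as the H3K27ac libraries; input libraries were not analysed here. The lowest count is 1, held by 3620 cells, so empty cells may have been set to 1. Tools listed in the submitters' processing notes, with no role given, are HOMER 4.11, DESeq2 1.28.1, DiffBind 2.16.2, MACS2, SAMtools 1.9, Bowtie2 2.3.5 and Trimmomatic 0.38; the build is mm10. Per the file headers, the table also gives each peak's place, nearest gene, distance and chromatin state, with a percent; the deposited percent was not used, and the chromatin map behind the states is not given in the sources used here.

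Counts were fitted in R 4.3.3 with edgeR 4.0.16 (quasi-likelihood F test, robust, TMM, filterByExpr with a minimum count of 10). All 12 libraries entered, with 1 term per group, and the contrast was HDACi-CFC minus Veh-CFC. Median biological variation between libraries was 0.131 (coefficient). P-values were adjusted over all tested peaks by Benjamini-Hochberg, and a peak was called under 0.05. The fit was tested on simulated data. Alternatives were library totals, loess offsets, DESeq2 1.42.0, other count filters, 6 libraries only, a replicate block, each library left out and thinning. Of 18806 gene symbols 98.8% matched the RefSeq table.

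The comparison, the lists (36, with 1331 genes) and the named peaks' rule were chosen with earlier results of these data known. Named peaks were the 3 called peaks of smallest p per chromatin state and direction without overlap of the groups, up to 3 called promoter peaks per list and direction, the 5 genes with most called peaks per direction, and the promoter peaks of Fos, Fosb, Junb, Egr1, Arc, Npas4, Nr4a1, Bdnf, Hdac1, Hdac2 and Hdac3. Some named peaks and 1 list are not reported here.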

Additional observations from a re-analysis of the deposited data

Results flagged for a closer look

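Among the 1322 peaks called in shocked mice, 7 had a drug effect that differed from the drug effect in mice without shock by the test of the difference itself (edgeR interaction, adjusted p from 0.0368 to 0.0494). The values are the log2 drug effect with shock minus that without. At 6 of them, each an active enhancer, H3K27ac rose with the drug in shocked mice. The estimate without shock was below 0, and of these Mir6999 alone passed the test there (-0.77 ± 0.22, edgeR adjusted p = 0.0196). The others ranged from -0.57 ± 0.27 at Mir3080 to -0.34 ± 0.12 at Mir3085 (adjusted p from 0.0726 to 0.193). The difference was 1.71 ± 0.35 (SE) at the peak named for Mir3080, 1.61 ± 0.30 at Mir6999, 1.12 ± 0.22 at Triobp, 1.01 ± 0.20 at Cebpa, 0.999 ± 0.20 at Rps10 and 0.86 ± 0.17 at Mir3085. At the peak named for Xcl1, of the control state, the difference was -1.68 ± 0.35, with effects of -1.03 ± 0.27 with shock and 0.65 ± 0.23 without (adjusted p = 0.0425 and 0.0667 in edgeR). These adjusted p-values lie close to the threshold, and each of the 7 drug calls in shocked mice was lost in some of 14 alternative settings: Xcl1 in 8, Mir6999, Mir3085 and Rps10 in 6 each, Cebpa in 4, Triobp in 2 and Mir3080 in 1. Gene names are those deposited beside the peaks and need not be the genes the peaks act on.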

How the results depend on the processing

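Rises numbered 696 and falls 626. With DESeq2 there were 1117 rises, 990 of them at enhancers, and its independent filter left 95024 adjusted p-values unset. Loess offsets gave 1024 falls. Testing peaks with a mean count of at least 50 gave 1170 falls, 749 of them at strong promoters; fewer peaks were tested there. Thinning every library to the smallest total, added after seeing the data, gave 461 rises, 304 falls and 230 falls at strong promoters. Leaving out 1 library gave 139 to 1248 rises, 86 to 1362 falls, 71 to 619 falls at strong promoters and 126 to 1039 rises at enhancers. The rise in calls without Veh-CFC replicate 1 had a cause that was not tested.

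With the replicate block there were 785 rises and 651 falls, 453 of the falls at strong promoters and 676 of the rises at enhancers, and the interaction passed at 7 of the calls, as without the block. Over all peaks the interaction passed at 89 with the block and 50 without. Libraries with the same number correlated by 0.080, 0.017 and 0.006 in their deviations, so the numbers were not taken as pairs.

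Of 88 named peaks called, 30 were called in each of 14 alternative settings and 58 were lost in 1 or more. The 30 include Lncpint, Gria2, Calm2, Map1b, Ppp3ca, Dlgap1, Foxo6, Coq7, Rpl10, Rps6, Wdr75 and Hist1h2be. Taking promoter-TSS peaks for the lists changed the sign of 12 of 36 medians. Depth limits narrow peaks most, with a median mean count of 19.4 in those up to 1 kb.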

Other observations

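Outside promoters and enhancers, 56 peaks rose and 80 fell in the control state and 5 rose and 9 fell in repressed regions. In peaks of the control state, Blmh, a cysteine protease gene, rose by 0.91 ± 0.16 on the log2 scale (SE), from 6.17, 7.42 and 6.37 to 12.5, 13.2 and 12.1 CPM, and Csmd1, a large transmembrane protein gene, by 0.76 ± 0.13 (edgeR, n = 3 a group). In repressed regions Zfp536 rose by 0.56 ± 0.12, and Gch1, the first enzyme of tetrahydrobiopterin synthesis, had a log2 fold change of -0.71 ± 0.14, called lower; 3 of 14 alternative settings lost each of these 2 calls. Some enhancers fell. An intergenic active enhancer domain of 18590 bp, named for Ccnh and far from its start site, measured 205, 230 and 260 CPM with vehicle and 141, 163 and 163 CPM with the drug, a log2 fold change of -0.57 ± 0.10. A strong-promoter peak within the noncoding host gene Mir99ahg measured 130, 150 and 188 CPM and 90.8, 101 and 96.2 CPM, or -0.70 ± 0.11.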
